A study of Homo sapiens with 23 samples.

Results

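Epithelial junction and polarity genes were followed in HCT116 cells, a human colorectal carcinoma line, and in 4 argonaute (*AGO*) knockout lines made from it. The members were 43 symbols from a list of tight junction, adherens junction, desmosome and polarity genes, membrane serine proteases and other genes of epithelial membranes. All 43 were found by Ensembl identifier among the 57875 genes in the count files. Steady state RNA levels were measured by RNAseq in 15 samples, with 3 replicates of each of 5 genotypes, given as wild type, AGO1-/-, AGO2-/-, AGO1-/- with AGO2-/-, and AGO1-/- with AGO2-/- and AGO3-/-. They are called wild-type cells and, by the genes lost, *AGO1*, *AGO2*, *AGO1/2* or *AGO1/2/3* knockout cells. The knockouts were made with CRISPR editing, no agent was given, and all lines grew in McCoy's 5A medium with serum. Genotype and line cannot be told apart, since each genotype is 1 line, and the labels do not say whether a line is 1 clone.

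Epithelial cells hold to each other through junctions along their sides. Tight junctions seal the space between cells with claudins and MARVEL proteins tied to ZO scaffolds, adherens junctions join neighbours through E-cadherin, and desmosomes link the keratin filaments of adjacent cells through desmosomal cadherins, plakophilins and desmoplakin. The Crumbs, PAR and Scribble complexes set the apical and the basolateral side, and apical membrane traffic and surface proteases with their inhibitors maintain the barrier. In colon epithelium these genes are expressed together, and their joint decrease is a known mark of the epithelial to mesenchymal transition, in which ZEB and SNAI repressors bind E-box sequences at promoters of such genes.

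The total of estimated counts ranged from 27709971 to 45271146 per sample, with a median of 30701840. After a filter on low counts 22842 genes were tested, of which 42 were members. *CLDN1* was left out, with 0 to 7 counts in each sample. Levels are given as counts normalized by the TMM method at the mean library size of 33193397, and a gene was called higher or lower at an adjusted p at or under 0.05 (quasi-likelihood test of edgeR, Benjamini-Hochberg). Each adjusted p given here is from that test, and SE is the standard error of a log2 fold change. *AGO1* RNA fell in the 3 lines that lack it (log2 fold change -1.89, -1.84 and -2.01). *AGO2* RNA fell only slightly in *AGO2* knockout cells (-0.51 (SE 0.10, adjusted p = 0.00518)), did not pass the test in *AGO1/2* knockout cells (-0.26, adjusted p = 0.0924) and was called higher in *AGO1/2/3* knockout cells (0.40 (SE 0.10, adjusted p = 0.00477)). *AGO3* RNA fell in *AGO1/2/3* knockout cells (-1.12). The level of an RNA does not say whether its edited transcript makes protein. The file headers of the *AGO2* knockout samples name another quantification mode, which cannot be told apart from the genotype. Of 9 colorectal markers, *KRT8*, *KRT18* and *KRT19* were high in all lines and *CDX1* had 0 counts. In *AGO1/2/3* knockout cells 6 of the 9 were tested, and *KRT8* was called higher (0.41) and *KRT20* and *CDX2* lower (-2.28 and -0.58). The sum of 10 mesenchymal markers lay between 1636 and 1828 normalized counts in wild-type and between 5519 and 6175 in *AGO1/2/3* knockout cells, with *VIM*, *FN1* and *COL3A1* called higher among the 8 tested and the other 5 not called. The median log2 fold change of the 8 was 0.03, with 4 above and 4 below 0. Sums ran from 83.2 to 190 and from 309 to 359 for 5 leukocyte markers, with *CD3E* at or near 0 and, of 3 tested, *LYZ* called higher (5.87) and *CD68* lower (-1.09). For 3 endothelial markers they ran from 75.9 to 83.6 and from 73.1 to 87.2. The part of other cells in the members' values was not tested, and fewer cells of a type cannot be told apart from less RNA per cell.

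In *AGO1/2/3* knockout cells, 24 of the 42 members tested were lower than in wild-type cells and 6 were higher. Among all genes tested, 19.8% were called lower and 20.3% higher. The median log2 fold change of the members was -0.58, against -0.01 for all genes tested. *AGO1/2* knockout cells had 18 members lower and 2 higher, where 8.35% and 8.37% of all genes were called, with a median of -0.42 against 0.01. *AGO1* knockout cells had 14 lower and 0 higher (5.50% and 3.17% of all genes, median -0.31 against -0.01). By the edgeR test 1 member, *DSP*, was higher in this line at an unadjusted p under 0.05, and DESeq2 called the same 1 member higher. *AGO2* knockout cells had 4 lower and 4 higher (10.8% and 8.55% of all genes, median -0.09 against -0.02), and with total counts in place of TMM these became 9 lower and 0 higher. Calls over all genes tested in this line then went from 2456 to 3593 lower and from 1952 to 733 higher. That scaling took the median of all genes tested from -0.01 to -0.15 in *AGO1/2/3* knockout cells, where the members then split into 26 lower and 5 higher. Over all genes the calls there were 5962 lower and 3459 higher, against 4522 and 4644 with TMM. The 4 comparisons share the wild-type samples. These counts cover the members that passed the filter. The list was chosen with earlier results of these data known, so the shares of all genes beside them are not a test of the list.

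**Figure D1:**
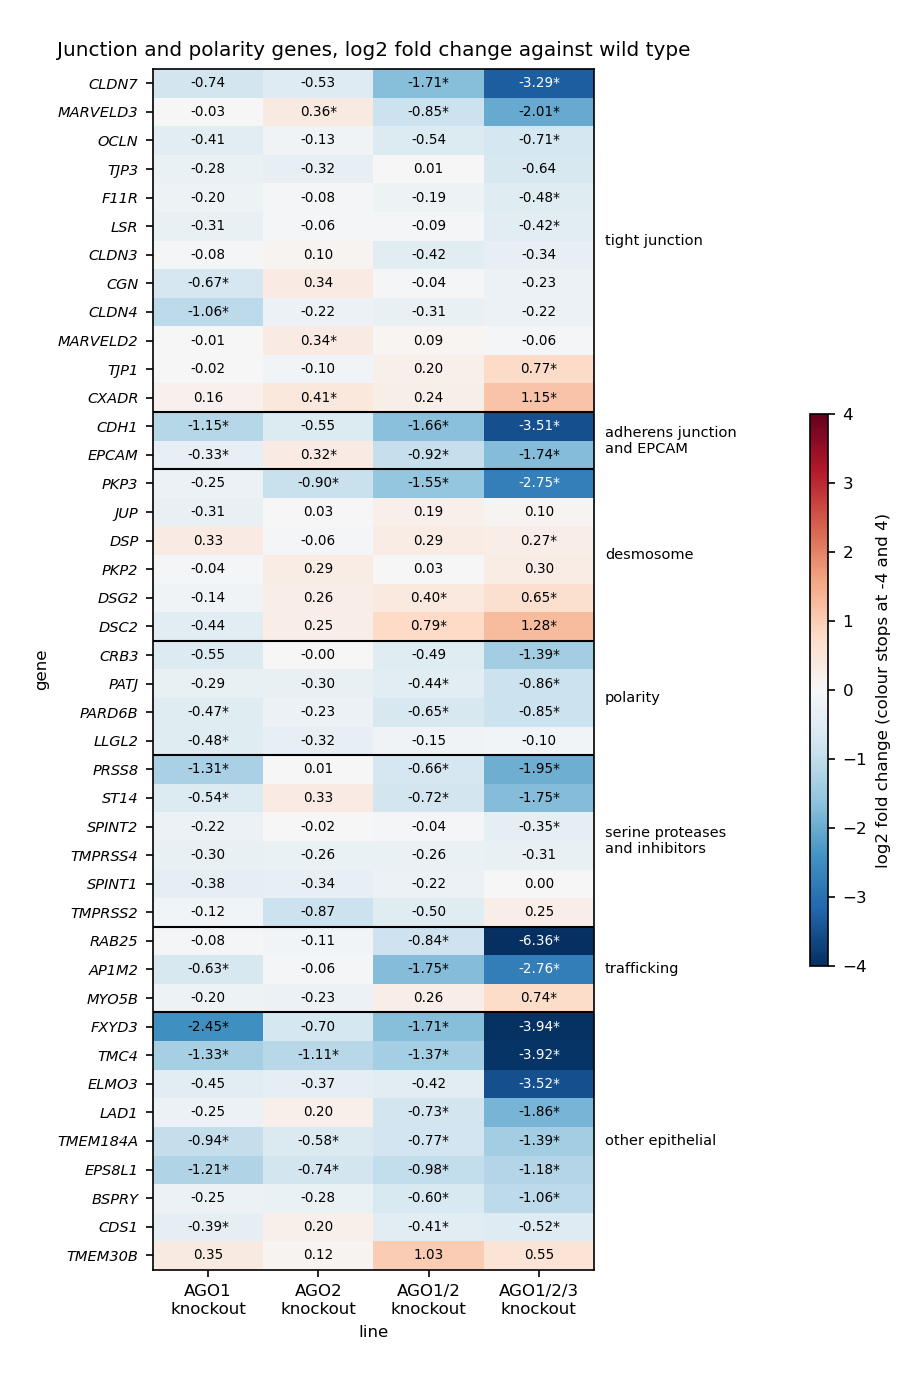
Log2 fold change of each of the 42 members tested against wild-type cells, by member group (rows) and knockout line (columns), with an asterisk where the adjusted p was at or under 0.05. Blue is lower and red is higher, and the colour stops at -4 and 4. In the *AGO1/2/3* column 24 members are called lower and 6 higher, and *RAB25* has the lowest value, -6.36.

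Of the 24 members lower in *AGO1/2/3* knockout cells, 18 were also lower in *AGO1/2* knockout cells, and 17 were lower by 2-fold or more. *EPS8L1*, *TMC4* and *TMEM184A* were called lower in all 4 lines. How often all genes tested had such shared calls was not counted, and the comparisons share the wild-type samples. *EPCAM* and *MARVELD3* were called in opposite directions, higher in *AGO2* and lower in *AGO1/2/3* knockout cells. *CLDN3*, *JUP*, *PKP2*, *SPINT1*, *TJP3*, *TMEM30B*, *TMPRSS2* and *TMPRSS4* were called in no knockout line. Replicates did not overlap those of wild-type cells for 28 members lying below and 6 lying above in *AGO1/2/3* knockout cells, where 23.8% and 26.3% of all genes tested did so. Summed over all 43 members, normalized counts were 100582 to 108724 in wild-type and 98672 to 99034 in *AGO1/2/3* knockout cells, close but without overlap. Within that sum *DSP* made up 13.0% to 13.9% in wild-type and 16.3% to 18.5% in *AGO1/2/3* knockout cells, and *CDH1* went from 2.35% to 4.09% down to 0.260% to 0.309%.

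Per length of merged exons, *EPCAM* was the member with the highest level in wild-type cells, at 87.4 ± 3.53 RPKM (reads per kilobase of exon, scaled to depth; SD, n = 3). *CLDN7* followed with 43.9 ± 16.8 RPKM, then *LSR* with 36.4 ± 3.11, *DSG2* with 31.8 ± 3.96 and *DSP* with 31.0 ± 1.35. These 4 overlapped their neighbours in the order, as did 33 of the 42 neighbouring pairs, whereas *EPCAM* lay above all samples of *CLDN7*. *CDH1* stood at rank 15 with 16.1 ± 5.24 RPKM. The lowest were *TMPRSS2* at 0.142 ± 0.0320, *CLDN1* at 0.0432 ± 0.0234 and *TMEM30B* at 0.0380 ± 0.0252 RPKM. The median of the tested members was 8.14 RPKM, against 1.87 for all genes tested.

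Many of the member promoters carry the 6-base E-box CAGGTG or its other strand CACCTG, the sequence that ZEB and SNAI proteins bind. RefSeq promoter windows (GRCh38.p14, 250 bases before to 50 after a start site) were matched by symbol for 29 of the 43 members. The others, *CDH1*, *CXADR*, *EPCAM*, *F11R*, *LLGL2*, *MARVELD3*, *PARD6B*, *PKP2*, *PKP3*, *PRSS8*, *SPINT2*, *ST14*, *TMPRSS2* and *TMPRSS4*, were not analysed here. The letters CAGGTG or CACCTG were found in 23 of the 29 members (79.3%), in 24.1% of 27305 genes with a window and in 24.7% of the 11797 protein-coding genes tested. They were present in 13 of 15 members lower in *AGO1/2/3* knockout cells, in 5 of 5 that were higher and in 5 of 8 that were not called. *FXYD3* and *LSR* were the lower members with no match in the window. The letters of the grainyhead motif, AACCGGTT, were found in 0 of 29 members and in 0.165% of all genes. A motif this rare cannot be judged from 29 genes. Its looser form AACNNGTT was found in 1 member, *CGN*, and in 4.36% of all genes. A gene counts once where it has several windows, and the median GC content of the member windows was 65.8%, against 64.0% for genes tested. Windows of 26 bases around an E-box, whose letters are in capitals, follow 5′ to 3′ on the gene's own strand for members that fell most and for 3 that rose.
CLDN7 chr17:7262472-7262497 (minus strand): aggtgcgcccCACCTGtccgcccgca
CLDN7 chr17:7262483-7262508 (minus strand): tacatatactCAGGTGcgccccacct
RAB25 chr1:156061109-156061134 (plus strand): tctctccaccCACCTGggccccaggt
TMC4 chr19:54173177-54173202 (minus strand): gccaggtacaCACCTGcccctggccc
ELMO3 chr16:67199031-67199056 (plus strand): tccccgccccCACCTGccgcaccttg
AP1M2 chr19:10587354-10587379 (minus strand): cagcgctgctCACCTGgccgcctccc
LAD1 chr1:201399344-201399369 (minus strand): ggaggggcgcCAGGTGaggcggcggc
CRB3 chr19:6464053-6464078 (plus strand): gtccccctcaCACCTGcgcgcttccg
DSC2 chr18:31102562-31102587 (minus strand): aactttctgtCAGGTGggcctcaggc
DSP chr6:7541576-7541601 (plus strand): agaaaccggcCAGGTGtggcctaggc
TJP1 chr15:29969122-29969147 (minus strand): ggccggcgcgCAGGTGgcccggcctc
Both orientations occur, CAGGTG and CACCTG being the same site read from either strand. Those of *DSC2*, *DSP* and *TJP1*, which were higher in *AGO1/2/3* knockout cells, carry the same 6 letters as those of the members that fell. A match describes the sequence and is not evidence of binding.

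Among the 12 tight junction members tested, 5 were lower in *AGO1/2/3* knockout cells (*CLDN7*, *MARVELD3*, *OCLN*, *F11R* and *LSR*) and 2 were higher (*TJP1* and *CXADR*). Of all genes tested 19.8% were called lower and 20.3% higher there, the shares to set beside this group and each group below. *CLDN7* encodes a claudin of the junction strand (ENSG00000181885, chromosome 17 from 7259903 to 7263983, hg38 with GENCODE v44 gene models, as for every gene here). *CLDN7* had 3098, 5215 and 2602 normalized counts in the 3 wild-type samples, 1321, 2626 and 2606 in the *AGO1* samples, 2735, 2622 and 2218 in the *AGO2* samples, 894, 1079 and 1372 in the *AGO1/2* samples and 459, 354 and 299 in the *AGO1/2/3* samples. The *AGO1/2* and *AGO1/2/3* samples lay below every wild-type sample and did not overlap each other, while the *AGO1* and *AGO2* samples overlapped wild type. The log2 fold change was -1.71 (SE 0.28, adjusted p = 0.000661) in *AGO1/2* and -3.29 (SE 0.30, adjusted p = 6.19e-07) in *AGO1/2/3* knockout cells, in which 10.2% of the wild-type mean was left. Its promoter holds 5 E-boxes, 2 of which are printed above, and 10.8% of its exon bases are shared with another gene on the same strand.

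*MARVELD3* encodes a MARVEL-domain protein of the tight junction (ENSG00000140832, chromosome 16 from 71626161 to 71642114). *MARVELD3* had 576, 484 and 529 normalized counts in the 3 wild-type samples, 534, 536 and 486 in the *AGO1* samples, 693, 672 and 671 in the *AGO2* samples, 301, 304 and 275 in the *AGO1/2* samples and 145, 134 and 115 in the *AGO1/2/3* samples. The *AGO2* samples lay above, and the *AGO1/2* and *AGO1/2/3* samples below, all wild-type samples. Log2 fold changes of *MARVELD3* were 0.36 (SE 0.10, adjusted p = 0.0276) in *AGO2*, -0.85 (SE 0.11, adjusted p = 6.56e-05) in *AGO1/2* and -2.01 (SE 0.11, adjusted p = 4.64e-09) in *AGO1/2/3* knockout cells. The call in *AGO2* knockout cells was lost under 8 of 22 alternative settings of the processing or with 1 sample left out, among them total counts only and a fit of only the lines compared. Of its exon bases 16.8% are shared with *PHLPP2* on the opposite strand. The library kit keeps strand, but the strand setting of the counting was not given in the sources used here.

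Occludin, encoded by *OCLN* (ENSG00000197822, chromosome 5 from 69492292 to 69558104), is the founding MARVEL protein of the tight junction. *OCLN* had 2204, 3722 and 1954 normalized counts in the 3 wild-type samples, 1698, 2121 and 2131 in the *AGO1* samples, 2481, 2585 and 2137 in the *AGO2* samples, 1551, 1708 and 2168 in the *AGO1/2* samples and 1456, 1647 and 1722 in the *AGO1/2/3* samples. All *AGO1/2/3* samples lay below all wild-type samples, and the other lines overlapped wild type. The log2 fold change in *AGO1/2/3* knockout cells was -0.71 (SE 0.20, adjusted p = 0.0101), and without wild-type replicate 2, the highest of the 15 samples, it was -0.40. *F11R*, which encodes the adhesion molecule JAM-A, and *LSR*, which encodes a receptor at tricellular contacts, fell by less in these cells, with log2 fold changes of -0.48 (SE 0.12, adjusted p = 0.00443) and -0.42 (SE 0.11, adjusted p = 0.00596). *F11R* shares 36.6% of its exon bases with another protein-coding gene on the same strand.

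*TJP1* encodes ZO-1, the scaffold that ties junction strands to actin (ENSG00000104067, chromosome 15 from 29699367 to 29968915). *TJP1* had 8361, 10936 and 7143 normalized counts in the 3 wild-type samples, 8244, 9293 and 8475 in the *AGO1* samples, 7187, 9739 and 7663 in the *AGO2* samples, 9259, 9651 and 11519 in the *AGO1/2* samples and 13748, 15093 and 16237 in the *AGO1/2/3* samples. All *AGO1/2/3* samples lay above the samples of every other line, with 15026 ± 1246 against 8814 ± 1937 in wild-type cells (mean ± SD, n = 3). The log2 fold change was 0.77 (SE 0.15, adjusted p = 0.000843). *CXADR*, the gene of the Coxsackie and adenovirus receptor, an adhesion protein of the junction, rose from 1666 ± 236 to 3708 ± 53.6 normalized counts (log2 fold change 1.15 (SE 0.10, adjusted p = 5.42e-07)). *AGO2* knockout cells had it higher too (0.41 (SE 0.10, adjusted p = 0.0167)), a call lost under 5 of 22 alternatives, among them total counts only.

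The other tight junction members were not called in *AGO1/2/3* knockout cells. *CLDN4*, a claudin gene, fell in *AGO1* knockout cells, from 3503 ± 480 to 1681 ± 589 normalized counts (log2 fold change -1.06 (SE 0.20, adjusted p = 0.00401)), and had -0.22 in *AGO1/2/3* knockout cells. *CGN*, which encodes the junction plaque protein cingulin, was likewise called in *AGO1* knockout cells (-0.67 (SE 0.16, adjusted p = 0.0155)), a call lost under 4 of 22 alternatives. *MARVELD2*, the gene of tricellulin, was called higher in *AGO2* knockout cells (0.34 (SE 0.11, adjusted p = 0.0407)), which was lost under 12 of 22 alternatives. *CLDN3* and *TJP3*, the latter encoding ZO-3, had log2 fold changes of -0.34 and -0.64 in *AGO1/2/3* knockout cells and did not pass the test there.

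Both members of the adherens group fell in the *AGO1*, *AGO1/2* and *AGO1/2/3* lines. *CDH1* encodes E-cadherin, the adhesion receptor of adherens junctions (ENSG00000039068, chromosome 16 from 68737292 to 68835537). *CDH1* had 2804, 4451 and 2476 normalized counts in the 3 wild-type samples, 1049, 1334 and 1991 in the *AGO1* samples, 2683, 1918 and 2057 in the *AGO2* samples, 899, 980 and 1201 in the *AGO1/2* samples and 290, 306 and 258 in the *AGO1/2/3* samples. The *AGO1/2/3* samples lay below all other samples, and the *AGO1* and *AGO1/2* samples below all wild-type samples. For *CDH1* the log2 fold change was -1.15 (SE 0.24, adjusted p = 0.00661) in *AGO1*, -1.66 (SE 0.24, adjusted p = 0.000226) in *AGO1/2* and -3.51 (SE 0.26, adjusted p = 7.51e-08) in *AGO1/2/3* knockout cells, where 8.77% of the wild-type mean was left. In *AGO2* knockout cells it was -0.55 (adjusted p = 0.106). A fit of only wild-type and *AGO1* samples ended the call in *AGO1* knockout cells.

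*EPCAM* encodes an epithelial adhesion protein that holds claudin-7 at the membrane (ENSG00000119888, chromosome 2 from 47345158 to 47387601). *EPCAM* had 6818, 6991 and 7375 normalized counts in the 3 wild-type samples, 5274, 5785 and 5743 in the *AGO1* samples, 8565, 9348 and 8586 in the *AGO2* samples, 4308, 3386 and 3527 in the *AGO1/2* samples and 2054, 2123 and 2151 in the *AGO1/2/3* samples. The 5 lines did not overlap each other at all. *EPCAM* was higher than wild type in *AGO2* knockout cells (0.32 (SE 0.10, adjusted p = 0.0317)) and lower in *AGO1* (-0.33 (SE 0.10, adjusted p = 0.0432)), *AGO1/2* (-0.92 (SE 0.10, adjusted p = 1.33e-05)) and *AGO1/2/3* knockout cells (-1.74 (SE 0.10, adjusted p = 6.02e-09)). The calls in *AGO1* and *AGO2* knockout cells were lost under 18 and 11 of 22 alternatives, whereas those in the *AGO1/2* and the *AGO1/2/3* line held under all of them.

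**Figure D2:**
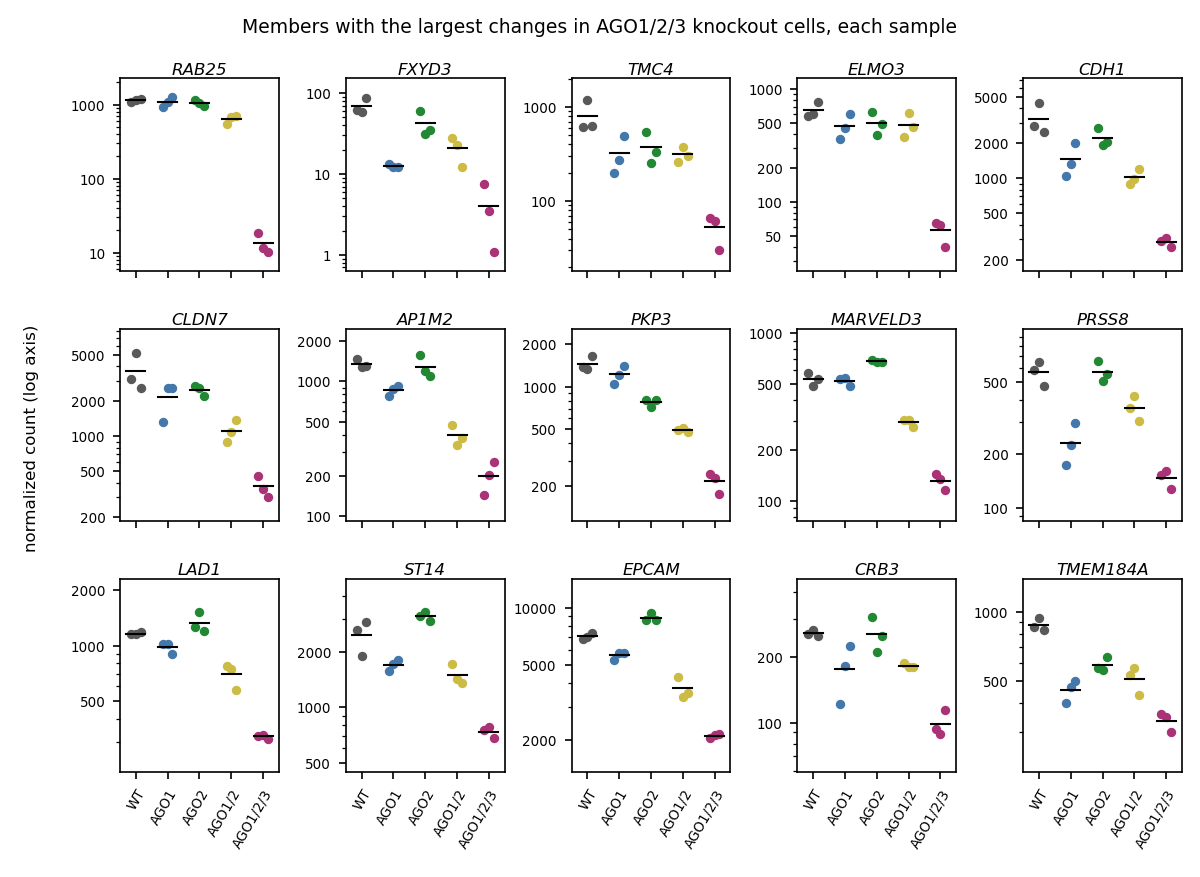
Normalized counts (vertical log axis) of the 15 members with the largest called changes in *AGO1/2/3* knockout cells, 1 point per sample with a line at the mean of 3 replicates, for wild-type cells (WT) and the 4 knockout lines. In each of the 15 panels the *AGO1/2/3* samples lie below all wild-type samples. In *AGO2* knockout cells all samples of *MARVELD3*, *EPCAM*, *LAD1* and *ST14* lie above wild type, of which *MARVELD3* and *EPCAM* were called.

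Of the 6 desmosome members, 3 were higher and 1 lower in the *AGO1/2/3* line, where 20.3% and 19.8% of all genes tested were called. The lower one was *PKP3*, which encodes plakophilin 3, a plaque protein that clusters desmosomal cadherins (ENSG00000184363, chromosome 11 from 392614 to 404908). *PKP3* had 1384, 1333 and 1643 normalized counts in the 3 wild-type samples, 1047, 1213 and 1408 in the *AGO1* samples, 812, 716 and 806 in the *AGO2* samples, 494, 512 and 479 in the *AGO1/2* samples and 243, 228 and 175 in the *AGO1/2/3* samples. The *AGO2*, *AGO1/2* and *AGO1/2/3* samples lay below wild type without overlap, each line below the one before. Against wild type the log2 fold change of *PKP3* was -0.90 (SE 0.13, adjusted p = 0.000708) in *AGO2*, -1.55 (SE 0.13, adjusted p = 2e-06) in *AGO1/2* and -2.75 (SE 0.14, adjusted p = 2.49e-09) in *AGO1/2/3* knockout cells, and -0.25 (adjusted p = 0.279) in *AGO1* knockout cells.

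The desmosomal cadherin genes *DSC2* and *DSG2* were higher. Wild-type cells had 2872 ± 636 normalized counts of *DSC2*, *AGO1/2* knockout cells 4979 ± 873 and *AGO1/2/3* knockout cells 6951 ± 208 (mean ± SD, n = 3). Its log2 fold changes were 0.79 (SE 0.16, adjusted p = 0.00261) and 1.28 (SE 0.16, adjusted p = 1.23e-05). *DSG2* had 10033 ± 1248 normalized counts in wild-type and 15711 ± 382 in *AGO1/2/3* knockout cells, with log2 fold changes of 0.40 (SE 0.10, adjusted p = 0.00933) in *AGO1/2* and 0.65 (SE 0.10, adjusted p = 7.03e-05) in *AGO1/2/3* knockout cells. Both genes lie on chromosome 18, and in the 2 lines their samples lay above all wild-type samples. The *AGO1/2* call of *DSG2* was lost under 2 of 22 alternatives.

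*DSP* encodes desmoplakin, which anchors keratin filaments to the desmosome (ENSG00000096696, chromosome 6 from 7541338 to 7586714). *DSP* had 13423, 14101 and 14646 normalized counts in the 3 wild-type samples, 15229, 17464 and 20435 in the *AGO1* samples, 13724, 13426 and 13350 in the *AGO2* samples, 16381, 17524 and 17749 in the *AGO1/2* samples and 18263, 16570 and 16143 in the *AGO1/2/3* samples. The *AGO1*, *AGO1/2* and *AGO1/2/3* samples lay above all wild-type samples, and the *AGO2* samples overlapped them. The log2 fold change in *AGO1/2/3* knockout cells was small, 0.27 (SE 0.10, adjusted p = 0.045), and the call was lost under 19 of 22 alternatives. *JUP*, the gene of plakoglobin, and *PKP2*, that of plakophilin 2, had log2 fold changes of 0.10 and 0.30 in these cells and did not pass the test in any line.

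**Figure D3:**
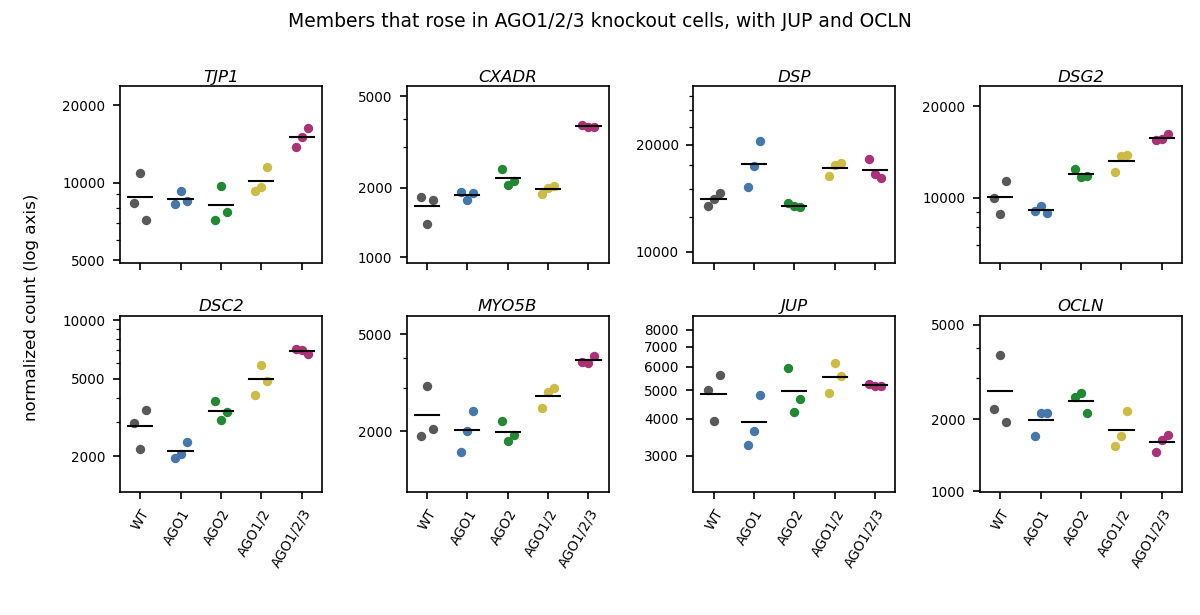
Normalized counts (vertical log axis) of the 6 members called higher in *AGO1/2/3* knockout cells (*TJP1*, *CXADR*, *DSP*, *DSG2*, *DSC2* and *MYO5B*) and of *JUP* and *OCLN*, 1 point per sample with a line at the mean of 3 replicates. The *AGO1/2/3* samples of the 6 lie above all wild-type samples, those of *OCLN* lie below, and those of *JUP* overlap wild type.

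Of the 4 polarity members, 3 were lower in *AGO1/2/3* knockout cells. *CRB3* encodes the small Crumbs protein of the apical membrane (ENSG00000130545, chromosome 19 from 6463777 to 6467221). *CRB3* had 255, 267 and 251 normalized counts in the 3 wild-type samples, 122, 182 and 225 in the *AGO1* samples, 308, 211 and 252 in the *AGO2* samples, 189, 180 and 180 in the *AGO1/2* samples and 93.2, 88.4 and 114 in the *AGO1/2/3* samples. The *AGO1*, *AGO1/2* and *AGO1/2/3* samples lay below all wild-type samples, and those of *AGO1/2/3* knockout cells also below the others. The log2 fold change was -1.39 (SE 0.20, adjusted p = 4.35e-05) in *AGO1/2/3* knockout cells, while -0.55 in *AGO1* and -0.49 in *AGO1/2* knockout cells did not pass the test (adjusted p = 0.0886 and 0.0903). Its promoter holds 5 E-boxes. *PATJ*, a scaffold of the Crumbs complex, and *PARD6B*, a member of the PAR complex, had log2 fold changes of -0.86 (SE 0.14, adjusted p = 0.00017) and -0.85 (SE 0.12, adjusted p = 3.1e-05) in *AGO1/2/3* knockout cells. Both were called lower in *AGO1/2* knockout cells too (-0.44 and -0.65), though for *PATJ* 6 of 22 alternatives ended that call. *LLGL2*, a basolateral polarity gene, was called lower in *AGO1* knockout cells (-0.48 (SE 0.12, adjusted p = 0.0204)) and had -0.10 in *AGO1/2/3* knockout cells. Its *AGO1* call was lost under 4 of 22 alternatives.

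Among the membrane proteases and their inhibitors, 3 of 6 were lower in *AGO1/2/3* knockout cells. *PRSS8* and *ST14* encode prostasin and matriptase, proteases that act together at the epithelial surface. *PRSS8* had 589, 649 and 476 normalized counts in the 3 wild-type samples, 174, 223 and 297 in the *AGO1* samples, 655, 509 and 561 in the *AGO2* samples, 361, 419 and 306 in the *AGO1/2* samples and 153, 160 and 128 in the *AGO1/2/3* samples. *ST14* had 2612, 1896 and 2919 normalized counts in the 3 wild-type samples, 1578, 1720 and 1808 in the *AGO1* samples, 3143, 3273 and 2924 in the *AGO2* samples, 1726, 1430 and 1354 in the *AGO1/2* samples and 752, 780 and 678 in the *AGO1/2/3* samples. The *AGO1/2/3* samples of both genes lay below all samples of the other 4 lines. For *PRSS8* (ENSG00000052344, chromosome 16 from 31131433 to 31135727) the log2 fold change was -1.31 (SE 0.19, adjusted p = 0.000557) in *AGO1*, -0.66 (SE 0.18, adjusted p = 0.0215) in *AGO1/2* and -1.95 (SE 0.19, adjusted p = 1.28e-06) in *AGO1/2/3* knockout cells. For *ST14* (ENSG00000149418, chromosome 11 from 130159782 to 130210362) the values were -0.54 (SE 0.14, adjusted p = 0.0243), -0.72 (SE 0.14, adjusted p = 0.00227) and -1.75 (SE 0.14, adjusted p = 2e-07). The *AGO1* call of *ST14* was lost under 5 of 22 alternatives and the *AGO1/2* call of *PRSS8* under 4. *SPINT2*, which encodes a Kunitz inhibitor of such proteases, fell in *AGO1/2/3* knockout cells (-0.35 (SE 0.11, adjusted p = 0.016)), while its paralog *SPINT1* had 0.00. *TMPRSS2* and *TMPRSS4*, which are low in these cells, had 0.25 and -0.31 and passed the test in no line. *PRSS8* shares 12.0% of its exon bases with a gene on the opposite strand.

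The largest change of any member was that of *RAB25*, an epithelial RAB11-family GTPase of apical recycling endosomes (ENSG00000132698, chromosome 1 from 156061160 to 156070504). *RAB25* had 1085, 1166 and 1194 normalized counts in the 3 wild-type samples, 921, 1081 and 1267 in the *AGO1* samples, 1163, 1048 and 972 in the *AGO2* samples, 547, 674 and 703 in the *AGO1/2* samples and 18.6, 11.6 and 10.1 in the *AGO1/2/3* samples. In *AGO1/2/3* knockout cells these are 22, 10 and 9 estimated counts, rounded, before normalization. The *AGO1/2* samples lay below wild type without overlap, and the *AGO1* and *AGO2* samples overlapped it. Log2 fold changes of *RAB25* were -0.84 (SE 0.14, adjusted p = 0.000781) in *AGO1/2* and -6.36 (SE 0.21, adjusted p = 3.48e-11) in *AGO1/2/3* knockout cells, where 1.17% of the wild-type mean was left. Its promoter window holds 2 E-boxes, and the one in capitals above begins 41 bases before the start site.

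*AP1M2* encodes the epithelial subunit of the AP-1 adaptor, which sorts proteins to the basolateral membrane (ENSG00000129354, chromosome 19 from 10572671 to 10587315). *AP1M2* had 1455, 1278 and 1292 normalized counts in the 3 wild-type samples, 785, 884 and 925 in the *AGO1* samples, 1557, 1194 and 1102 in the *AGO2* samples, 478, 338 and 377 in the *AGO1/2* samples and 144, 202 and 250 in the *AGO1/2/3* samples. The *AGO1* samples lay below wild type, the *AGO1/2* samples below these, and the *AGO1/2/3* samples lowest of all. *AP1M2* had log2 fold changes of -0.63 (SE 0.18, adjusted p = 0.0364) in *AGO1*, -1.75 (SE 0.18, adjusted p = 1.12e-05) in *AGO1/2* and -2.76 (SE 0.19, adjusted p = 4.06e-08) in *AGO1/2/3* knockout cells, and the *AGO1* call was lost under 11 of 22 alternatives. *MYO5B*, the myosin motor that carries RAB11-family vesicles, went the other way in *AGO1/2/3* knockout cells, from 2338 ± 628 to 3914 ± 146 normalized counts (log2 fold change 0.74 (SE 0.17, adjusted p = 0.00232)).

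Of the 9 other epithelial members, 8 were lower in *AGO1/2/3* knockout cells. *TMC4* encodes a transmembrane channel-like protein (ENSG00000167608, chromosome 19 from 54160108 to 54173250). *TMC4* had 614, 1194 and 621 normalized counts in the 3 wild-type samples, 198, 273 and 496 in the *AGO1* samples, 540, 254 and 331 in the *AGO2* samples, 258, 378 and 304 in the *AGO1/2* samples and 66.9, 61.6 and 30.4 in the *AGO1/2/3* samples. All 4 knockout lines lay below the wild-type samples without overlap, and the *AGO1/2/3* samples below all others. On the log2 scale *TMC4* changed by -1.33 (SE 0.36, adjusted p = 0.0322) in *AGO1*, -1.11 (SE 0.35, adjusted p = 0.0408) in *AGO2*, -1.37 (SE 0.36, adjusted p = 0.0164) in *AGO1/2* and -3.92 (SE 0.42, adjusted p = 3.12e-06) in *AGO1/2/3* knockout cells. The calls in *AGO1*, *AGO2* and *AGO1/2* knockout cells were lost under 5, 8 and 3 of 22 alternatives. These included the fit without wild-type replicate 2, the highest sample. There the log2 fold changes were -0.94, -0.74 and -0.99, and -3.55 in *AGO1/2/3* knockout cells.

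*ELMO3* encodes an adaptor of Rac activation (ENSG00000102890, chromosome 16 from 67199111 to 67204029). *ELMO3* had 575, 597 and 765 normalized counts in the 3 wild-type samples, 363, 451 and 604 in the *AGO1* samples, 622, 390 and 487 in the *AGO2* samples, 372, 614 and 465 in the *AGO1/2* samples and 65.2, 62.8 and 39.4 in the *AGO1/2/3* samples. Samples of the *AGO1*, *AGO2* and *AGO1/2* lines overlapped wild type, and those of *AGO1/2/3* knockout cells lay far below all others. *ELMO3* had a log2 fold change of -3.52 (SE 0.27, adjusted p = 1.02e-07) in *AGO1/2/3* knockout cells and -0.42 (adjusted p = 0.247) in *AGO1/2* knockout cells.

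*FXYD3* encodes a small regulator of the sodium pump (ENSG00000089356, chromosome 19 from 35115823 to 35124324) and was scarce. *FXYD3* had 62.4, 58.2 and 87.1 normalized counts in the 3 wild-type samples, 13.4, 12.1 and 12.2 in the *AGO1* samples, 60.9, 31.5 and 35.3 in the *AGO2* samples, 27.6, 22.9 and 12.2 in the *AGO1/2* samples and 7.6, 3.5 and 1.1 in the *AGO1/2/3* samples. The *AGO1/2/3* samples held 9, 3 and 1 estimated counts, rounded, before normalization. The *AGO1*, *AGO1/2* and *AGO1/2/3* samples lay below all wild-type samples. Its log2 fold changes were -2.45 (SE 0.37, adjusted p = 0.000831), -1.71 (SE 0.34, adjusted p = 0.00288) and -3.94 (SE 0.43, adjusted p = 3.94e-06), and for a gene with so few reads the last depends on the prior count of the fit. It shares 38.1% of its exon bases with another protein-coding gene on the same strand, so that the split of reads between them is uncertain.

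*LAD1* encodes ladinin, an anchoring protein of the basement membrane (ENSG00000159166, chromosome 1 from 201380833 to 201399915). *LAD1* had 1151, 1149 and 1180 normalized counts in the 3 wild-type samples, 1014, 1024 and 898 in the *AGO1* samples, 1269, 1517 and 1199 in the *AGO2* samples, 778, 745 and 575 in the *AGO1/2* samples and 323, 327 and 312 in the *AGO1/2/3* samples. The *AGO1*, *AGO1/2* and *AGO1/2/3* samples lay below all wild-type samples and the *AGO2* samples above them, and the log2 fold change passed the test in the *AGO1/2* and the *AGO1/2/3* line, at -0.73 (SE 0.12, adjusted p = 0.000591) and -1.86 (SE 0.12, adjusted p = 2.38e-08). *TMEM184A* encodes a transmembrane protein (ENSG00000164855, chromosome 7 from 1542235 to 1560821). *TMEM184A* had 859, 935 and 829 normalized counts in the 3 wild-type samples, 401, 469 and 501 in the *AGO1* samples, 567, 560 and 633 in the *AGO2* samples, 532, 570 and 432 in the *AGO1/2* samples and 357, 347 and 298 in the *AGO1/2/3* samples. Every knockout sample lay below every wild-type sample. The log2 fold changes of *TMEM184A* were -0.94 (SE 0.12, adjusted p = 0.000281), -0.58 (SE 0.12, adjusted p = 0.00687), -0.77 (SE 0.12, adjusted p = 0.000499) and -1.39 (SE 0.13, adjusted p = 5.24e-07) in the order of the lines above.

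*EPS8L1*, a gene related to the actin regulator EPS8, was lower in all 4 lines as well (-1.21, -0.74, -0.98 and -1.18), though its *AGO2* call was lost under 3 of 22 alternatives. *BSPRY*, which encodes a B-box and SPRY domain protein, had -0.60 in *AGO1/2* and -1.06 in *AGO1/2/3* knockout cells. *CDS1*, which encodes a synthase of CDP-diacylglycerol, had -0.39 in *AGO1*, -0.41 in *AGO1/2* and -0.52 in *AGO1/2/3* knockout cells, all called lower. Its *AGO1* call was lost under 10 of 22 alternatives and its *AGO1/2* call under 4. *TMEM30B*, with 2.0 to 14.9 normalized counts in each sample, was called in no line.

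The *AGO1/2/3* line was then compared with the *AGO1/2* line directly. Of 42 members, 19 were lower and 3 higher in *AGO1/2/3* than in *AGO1/2* knockout cells, where 10.0% and 11.9% of all genes tested were called. The median log2 difference of the members was -0.30, against -0.01 for all genes tested. All 19 lower members are among the 24 that were lower than wild type, and the 3 higher ones, *CXADR*, *DSC2* and *TJP1*, are among the 6 higher. Both comparisons use the *AGO1/2/3* samples, and how often all genes tested shared such calls was not counted. The difference was -5.52 (SE 0.20, adjusted p = 8.21e-10) for *RAB25*, -3.10 (SE 0.27, adjusted p = 1.39e-06) for *ELMO3* and -2.55 (SE 0.42, adjusted p = 0.000443) for *TMC4*. It was -1.85 (SE 0.25, adjusted p = 7.67e-05) for *CDH1*, -1.58 (SE 0.29, adjusted p = 0.000999) for *CLDN7* and -0.83 (SE 0.10, adjusted p = 2.37e-05) for *EPCAM*. *OCLN*, *PARD6B*, *CDS1*, *EPS8L1* and *F11R* fell against wild type but did not pass this test (-0.17, -0.20, -0.11, -0.21 and -0.29). *CXADR* was higher by 0.91 (SE 0.10, adjusted p = 1.76e-05), *TJP1* by 0.57 (SE 0.15, adjusted p = 0.0142) and *DSC2* by 0.48 (SE 0.16, adjusted p = 0.0376). The *DSC2* call was lost under 10 of 22 alternatives and that of *TJP1* under 3, all of which left out 1 sample of the 2 lines. The count of 3 was 1 without *AGO1/2* replicate 1 or *AGO1/2/3* replicate 3, and 5 without *AGO1* replicate 1. Over all genes tested 2255, 1825 and 2715 were called higher in these fits, against 2720 with every sample.

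**Figure D4:**
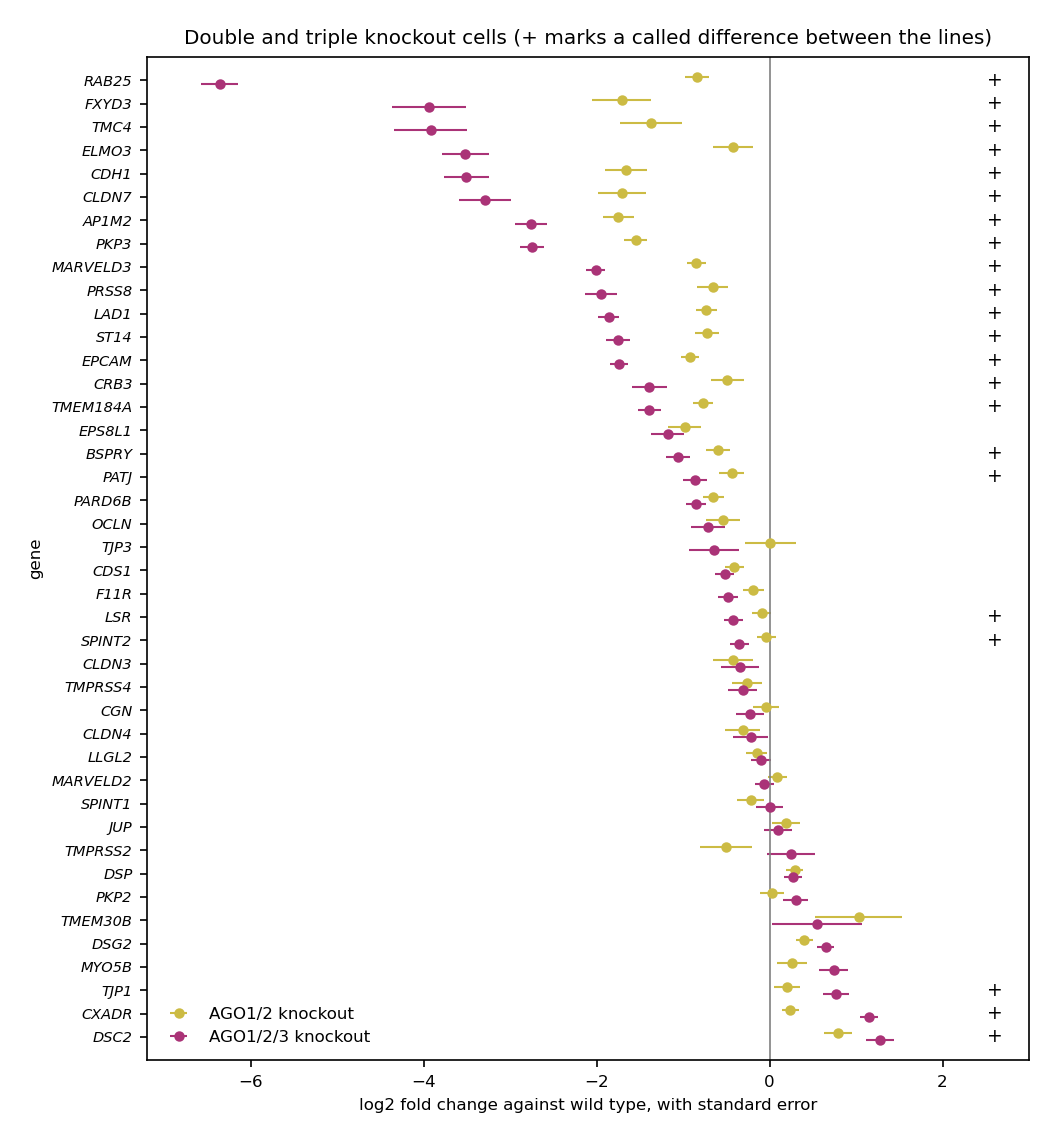
Log2 fold change against wild-type cells with its standard error (horizontal axis) for the 42 members tested, in the *AGO1/2* and the *AGO1/2/3* line, with a plus sign where these 2 lines differed in the direct test. Most members that lie left of 0 in *AGO1/2* knockout cells lie further left in *AGO1/2/3* knockout cells, and *RAB25* and *ELMO3* are farthest apart.

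The interaction was tested, the log2 difference between *AGO1/2* and *AGO1* cells less that between *AGO2* and wild-type cells. The other quantification mode of the *AGO2* samples enters it. Neither mode nor line can be told apart from loss of *AGO2* here. The interaction was called below 0 for 5 members (*AP1M2*, *EPCAM*, *LAD1*, *MARVELD3* and *RAB25*) and above 0 for 5 (*CLDN4*, *DSC2*, *EPS8L1*, *LLGL2* and *TMEM184A*). Of all genes tested 8.26% and 11.5% were called, or 19.7% in either direction, against 23.8% of the members. With total counts in place of TMM the split was 4 below and 8 above, and the interaction's median over all genes moved to 0.17. Calls over all genes then were 1228 below and 3467 above, against 1887 and 2618 with TMM. Among members *MARVELD3* had the lowest value, -1.18 (SE 0.15, adjusted p = 9.21e-05). Its mean was 97.9% of wild type with *AGO1* knocked out, 128% with *AGO2* and 55.4% with both. *AP1M2* had -1.06 (SE 0.25, adjusted p = 0.00904) and *EPCAM* -0.91 (SE 0.14, adjusted p = 0.000402). *DSC2* had 0.97 (SE 0.22, adjusted p = 0.00686), with means of 73.9%, 119% and 173% of wild type in the same lines. *CDH1* had 0.04 (SE 0.33, adjusted p = 0.949). Without *AGO1* replicate 1, 2 or 3 the count of members above 0 was 3, 2 and 10. Over all genes tested it was 1921, 1785 and 2815.

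Members often shared the order of the replicates within the *AGO1* and *AGO2* lines. Whether all genes tested did so was not examined. *AGO1* replicate 1 was the lowest of its line for 33 of 42 members and replicate 3 the highest for 29, and the members' summed counts ran from 79631 to 100183 in this line. *AGO2* replicate 1 was the highest of its line for 32 of 42 members. The 14 members lower in *AGO1* knockout cells became 7 without *AGO1* replicate 1, 6 without replicate 2, 8 without wild-type replicate 1 and 9 without wild-type replicate 3, each time among the 14. Over all genes tested, the number called lower went from 1257 to 648, 575, 961 and 1151 in the same order. Of the 14 members, *CLDN4*, *EPS8L1*, *FXYD3*, *PRSS8* and *TMEM184A* kept their call under all alternatives run. In *AGO2* knockout cells *PKP3* and *TMEM184A* kept theirs. In *AGO1/2/3* knockout cells 29 of 30 calls were kept, the exception being *DSP*.

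Other genes of the same structures, listed but not members, were called in both directions. So were all genes tested, with 20.3% higher and 19.8% lower in *AGO1/2/3* knockout cells. Of 36 other junction genes 28 were tested, and in *AGO1/2/3* knockout cells 8 were higher and 5 lower, with a median log2 fold change of 0.17. The desmosomal cadherin gene *DSC3* was higher (1.44 (SE 0.11, adjusted p = 8.38e-08)), as was the plakophilin gene *PKP4* (0.98 (SE 0.11, adjusted p = 5.99e-06)), whereas the P-cadherin gene *CDH3* was lower (-1.10 (SE 0.12, adjusted p = 4.68e-06)). Of 15 other polarity genes 13 were tested, and 4 were higher and 1 lower, with *PALS1*, a scaffold that binds CRB3 and PATJ, at 1.43 (SE 0.14, adjusted p = 1.12e-06). Whether these lists differ from the members was not tested. Of 5 repressors of epithelial genes 2 were higher and 1 lower. Their median log2 fold change was 0.51 and the lowest -1.11, and *ZEB1* had the highest. *ZEB1* had 262, 318 and 300 normalized counts in wild-type and 1806, 1941 and 2187 in *AGO1/2/3* knockout cells, without overlap (log2 fold change 2.75 (SE 0.15, adjusted p = 2.95e-09)). Of 11 activators 7 were lower and 1 higher. The median of the 11 was -0.76 and the highest value 1.83, and *GRHL2* had the lowest. *GRHL2* had 1216, 908 and 1039 normalized counts in wild-type, 68, 60.7 and 72.1 in the *AGO1/2* samples and 37.3, 33.7 and 40.5 in the *AGO1/2/3* samples (log2 fold change -4.82 (SE 0.18, adjusted p = 1.93e-10)). In *AGO1/2* knockout cells 1 of the 5 repressors was higher and 1 lower (median -0.35), and 9 of the 11 activators were lower and 0 higher (median -1.05). The part of repressors and activators in the members' values was not tested.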

How the data were processed

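RNA was sequenced from 5 HCT116 lines with 3 replicates each. The labels name a strand-specific total RNA kit. The authors aligned reads to hg38 with STAR 2.5.3a and quantified them with Salmon 0.11.0, as the submitters' processing notes give, and deposited estimated counts (expected counts) per gene, not normalized, in 1 file per sample. No 2 of the 15 files were identical. The 8 eCLIP samples were not analysed here.

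Estimated counts were rounded to whole numbers, filtered with filterByExpr and normalized by TMM. One model with a mean for each line was fitted to all 15 samples with edgeR 4.0.16 (R 4.3.3), and contrasts were tested by its quasi-likelihood test with Benjamini-Hochberg adjustment over 22842 genes, at adjusted p at or under 0.05. The biological coefficient of variation was 0.152. Standard errors come from this fit, and p-values measure the spread between replicates, whose origin the labels do not state. Symbols and positions are those of GENCODE v44 (57167 of 57875 genes matched). Tables used pandas 2.3.3 and numpy 2.4.6 under Python 3.11.15, and plots matplotlib 3.10.9. The fit was tested on simulated data.

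The members and all gene lists were chosen with earlier results of these data known. Per-sample values are given for the 15 members with the largest called change in *AGO1/2/3* knockout cells, for *CDH1*, *EPCAM*, *OCLN*, *TJP1* and *DSP*, and for members called in opposite directions. Other members are given by counts and fold changes. The non-members named with values were picked from their lists after their values were seen. Alternatives were DESeq2's size factors, total counts only, DESeq2 1.42.0's Wald test, no filter, a filter of 10 or more counts in every sample, a fit of the compared lines alone, replicate number as a block, and each sample left out in turn.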

Additional observations from a re-analysis of the deposited data

Results flagged for a closer look

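For 10 members the interaction term of the edgeR fit passed (quasi-likelihood test, Benjamini-Hochberg). Their log2 difference between *AGO1/2* and *AGO1* cells was not that between *AGO2* and wild-type cells. The other quantification mode of the *AGO2* samples and the single line per genotype enter this term. They cannot be told apart from loss of *AGO2*. Among all genes tested 19.7% passed this test, and 23.8% of the members did. The value was below 0 for *MARVELD3* (-1.18), *AP1M2* (-1.06), *EPCAM* (-0.91), *LAD1* (-0.68) and *RAB25* (-0.65). It was above 0 for *CLDN4* (0.97), *DSC2* (0.97), *EPS8L1* (0.97), *TMEM184A* (0.74) and *LLGL2* (0.66). *MARVELD3*, *EPCAM* and *LAD1* had a positive log2 fold change in *AGO2* knockout cells (0.36, 0.32 and 0.20, the last not passing the test) and negative ones in *AGO1/2* knockout cells (-0.85, -0.92 and -0.73). *CLDN4* had -1.06 in *AGO1* but -0.31 in *AGO1/2* knockout cells, the latter not passing the test. *TMEM184A* and *EPS8L1* were lower in all of the *AGO1*, *AGO2* and *AGO1/2* lines, with -0.94, -0.58 and -0.77 for the first and -1.21, -0.74 and -0.98 for the second. The interaction passed under all alternatives run for *MARVELD3*, *AP1M2*, *EPCAM*, *LAD1*, *DSC2* and *TMEM184A*. It was lost for *LLGL2* under 1 of 22 alternatives, for *EPS8L1* under 2, for *CLDN4* under 6, and for *RAB25* under 5 of 21.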

How the results depend on the processing

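In *AGO1/2/3* knockout cells 29 of 30 member calls held under every alternative run, and *DSP* was the exception. The counts there ran from 5 to 6 higher and from 24 to 25 lower with each sample left out. Calls held under every alternative for 5 of 14 members in *AGO1*, 2 of 8 in *AGO2* and 15 of 20 in *AGO1/2* knockout cells, for 16 of 22 between *AGO1/2/3* and *AGO1/2* knockout cells, and for 6 of 10 in the interaction. No called value changed direction. The median over members stayed between -0.72 and -0.52 in *AGO1/2/3*, -0.51 and -0.33 in *AGO1/2*, -0.43 and -0.26 in *AGO1* and -0.22 and -0.05 in *AGO2* knockout cells.

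A fit of only the lines compared, with fewer samples to estimate the spread, lowered the members in *AGO1* knockout cells from 14 to 6 lower, in *AGO2* from 4 to 0 higher and from 4 to 2 lower, and in *AGO1/2* from 2 to 1 higher. Over all genes tested, calls of lower went from 1257 to 439 in *AGO1* and from 2456 to 1340 in *AGO2* knockout cells. Calls of higher went from 1952 to 528 in *AGO2* and from 1913 to 927 in *AGO1/2* knockout cells. With total counts only, *AGO2* knockout cells had 0 members higher and 9 lower, and 8 lay above 0 in the interaction. Over all genes 733 were called higher and 3593 lower there, and 3467 above 0 in the interaction. DESeq2's Wald test called 1 member, *DSP*, higher in *AGO1* knockout cells, where edgeR called 0, and 5 higher in *AGO1/2/3* than in *AGO1/2* knockout cells. The cause of these shifts was not tested. Leaving out each sample gave 0 to 1 higher and 6 to 15 lower members for *AGO1*, 0 to 4 and 2 to 7 for *AGO2*, and 1 to 3 and 14 to 19 for *AGO1/2*. It gave 1 to 5 higher and 15 to 21 lower between *AGO1/2/3* and *AGO1/2* knockout cells, and 2 to 10 above and 4 to 6 below 0 in the interaction. Over all genes, calls of lower were 575 and 1278 for *AGO1* without *AGO1* replicate 2 or 3. For *AGO1/2* they were 1487 without *AGO1/2* replicate 1 and 2005 without wild-type replicate 3.

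Single samples behind these ranges in *AGO2* knockout cells were wild-type replicate 2 (1 higher and 2 lower without it), *AGO2* replicate 3 (0 higher and 2 lower), *AGO2* replicate 1 (1 higher and 7 lower) and wild-type replicate 3 (7 lower). Over all genes tested these fits called, in this order, 494, 506, 1401 and 2064 higher and 1380, 1322, 2448 and 2958 lower. The count of higher members in *AGO2* knockout cells was 1 without *AGO2* replicate 2 or *AGO1/2/3* replicate 2, and 2 without wild-type replicate 1 or *AGO1/2/3* replicates 1 or 3. In *AGO1/2* knockout cells it was 1 without *AGO1/2* replicate 2, and in *AGO1* knockout cells 1 without *AGO1* replicate 1.

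Replicate numbers did not pair the samples. Deviations of same-numbered samples correlated with r from -0.218 to 0.291 (over 0.1 in 5 of 30 pairs). With the replicate number as a block the counts were 0 higher and 11 lower for *AGO1*, 4 and 3 for *AGO2*, 2 and 17 for *AGO1/2*, and 5 and 24 for *AGO1/2/3*. Over all genes they were 641 and 1140, 1604 and 2194, 1836 and 1763, and 4585 and 4360. At least 10 counts in every sample left out *FXYD3*, *RAB25* and *TMEM30B*, which have no value under it. *CLDN1*, with 0 to 7 counts in each sample, was too low to be tested.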
